A study of Drosophila melanogaster with 4 samples.

Results

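The Turandot genes encode a family of small secreted stress peptides of the fly, and 4 of the 7 named here had a row in the full table of expression values: TotA, TotB, TotC and TotF. They were found by symbol (Tot followed by A, B, C, F, M, X or Z) among 21529 transcripts of 12116 genes. TotM, TotX and TotZ had no row in that table, either by symbol or by gene identifier. Every transcript in the table reached an FPKM (fragments scaled by transcript length and library size) of at least 0.669 in 1 genotype. A gene below that level in both genotypes would therefore have no value here, and nothing is said of the levels of these 3 genes.

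The values come from whole wandering larvae of the last instar of Drosophila melanogaster, sequenced as total RNA. The hsromega66 larvae were homozygous for hsromega[66], a mutant allele of the long noncoding RNA gene Hsromega, and the control larvae were of the wild-type stock Oregon R+. Each genotype had 2 libraries, each from 5 larvae, and the labels name no agent. The labels do not say whether the 2 libraries of a genotype came from separate cultures. They give no lesion for the allele, and the effect of the allele cannot be told apart from other differences between these stocks. The authors' table has a single FPKM per genotype for each transcript, made from both libraries together. Its columns are headed CON and Treated. Treated was taken as hsromega66 because the labels give only these 2 groups, and every direction below rests on that. There is therefore no SD and no value per library for any gene below, and the sequencing depth is unknown because the table holds no counts.

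Turandot peptides are made mainly in the fat body and released into the haemolymph after heat, wounding, infection, oxidative stress or ultraviolet light. In Drosophila, TotA is a textbook target of the JAK/STAT pathway, in which cytokines of the unpaired family act through the receptor Domeless, the kinase Hopscotch and the transcription factor Stat92E. The NF-kappaB factor Relish of the Imd pathway and the kinase Mekk1 have also been described as inputs to Turandot genes.

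The listed genes lie on 2 chromosomes. TotA (FBgn0028396; 3R, 20871036 to 20871700, dm6), TotC (FBgn0044812; 3R, 20872988 to 20873580) and TotB (FBgn0038838; 3R, 20873938 to 20874522) follow one another on the plus strand within 3487 bp, with 1287 bp between TotA and TotC and 357 bp between TotC and TotB. TotZ (3R, 20877736 to 20878363) begins 3213 bp further on, and TotX (3R, 20904917 to 20905518) lies on the minus strand of the same region. TotF (FBgn0044811; 2L, 19911815 to 19912377, minus strand) and TotM (2L, 5329857 to 5330464, plus strand) lie on the other chromosome, apart from each other. Each of the 4 listed genes has 1 annotated transcript of 2 exons, between 506 bases (TotF) and 579 bases (TotA) long. Their coding parts hold 129 codons in TotA and in TotC, 138 in TotB and 125 in TotF, so that they are of nearly the same size. How reads were divided among these related copies was not examined.

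TotC was the member that fell in hsromega66 larvae. It stood at 4.38 FPKM in hsromega66 larvae and 63.0 FPKM in control larvae, a level 14.4-fold lower in the mutant. In the authors' deposited table TotC had a q value of 0.00546, from Cuffdiff, the smallest q in that table and one shared by 197 transcripts. It was the only 1 of the 4 listed members with a q of at most 0.05, where 2.31% of all 12116 genes passed in either direction 0.908% with a lower and 1.4% with a higher value. Its log2 ratio, the difference hsromega66 minus control in log2(FPKM + 1), was -3.57, the 27th lowest of all genes. This scale understates changes of low genes. TotC was the 1290th most abundant gene in control larvae and the 8202nd in hsromega66 larvae.

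TotA, the founding member of the family, was by far the most abundant. It stood at 1403 FPKM in hsromega66 larvae and 2140.2 FPKM in control larvae, which placed it 132nd among all genes in hsromega66 larvae and 78th in control larvae. The hsromega66 value was 0.656 of the control value, with a log2 ratio of -0.61. In the authors' deposited table its p-value was 0.0675 and its q value 0.998, so the lower value did not pass the threshold.

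TotB and TotF had middling levels in control larvae and lower ones in hsromega66 larvae, without passing the threshold. TotB stood at 0.425 FPKM in hsromega66 larvae and 8.66 FPKM in control larvae, with a log2 ratio of -2.76 and the largest plain ratio of the 4, 20.4-fold. The authors' deposited table gives TotB a p-value of 0.0413 and a q value of 0.988, and places it in its class of downregulated transcripts, as it does TotC. TotF stood at 0.921 FPKM in hsromega66 larvae and 7.71 FPKM in control larvae, 8.38-fold lower in the mutant, with a log2 ratio of -2.18. In the authors' deposited table TotF had a p-value of 0.202 and a q value of 0.998. An unadjusted p of at most 0.05 was reached by TotC and TotB, where 7.82% of all genes had such a p in either direction and 3.2% had it with a lower value.

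**Figure D1:**
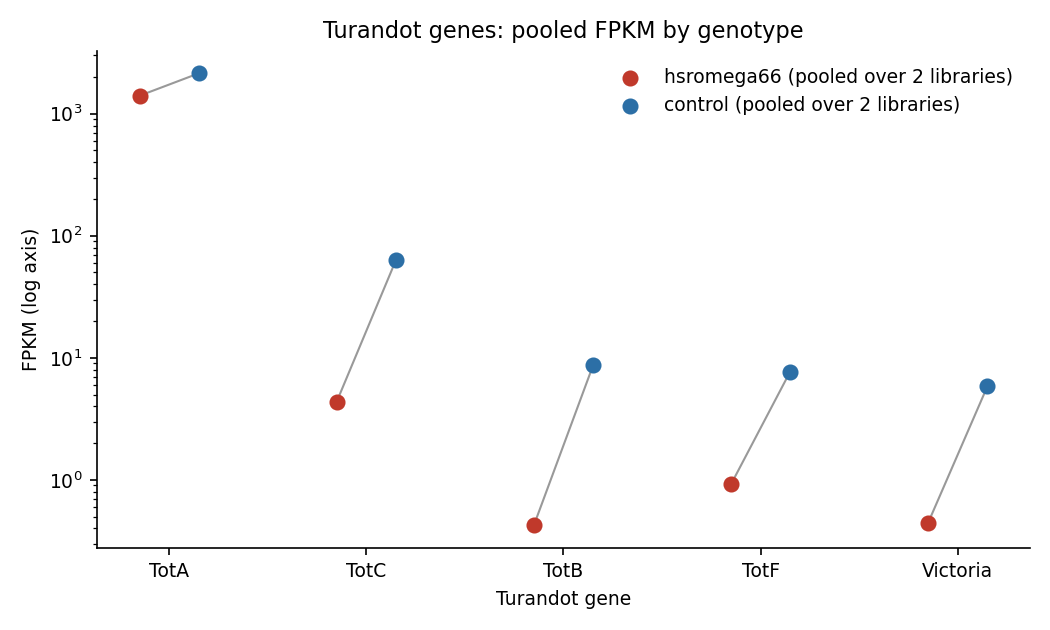
FPKM on a log axis of the 4 listed Turandot members and of Victoria, with 1 point per genotype (hsromega66 in red on the left, control in blue on the right), pooled by the authors over 2 libraries each, so that no error bar can be drawn. Each red point lies below its blue partner: the gap is narrowest for TotA (1403 FPKM in hsromega66 and 2140.2 FPKM in control) and widest for TotB (0.425 FPKM in hsromega66 and 8.66 FPKM in control).

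All 4 listed members had lower values in hsromega66 larvae, where 51.8% of all genes did. Their median log2 ratio was -2.47, beside -0.013 over all genes. These figures describe the rows and do not support a change of the family, because a transcript entered the table on its higher value. TotB, at 0.425 FPKM in hsromega66 larvae, is listed on its control value alone, whereas TotA, TotC and TotF exceeded 0.669 FPKM in both genotypes.

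Summed over the 4 listed members, Turandot RNA stood at 1409 FPKM in hsromega66 larvae and 2219.6 FPKM in control larvae, a log2 ratio of -0.66. TotA made up 99.6% of that sum in hsromega66 larvae and 96.4% in control larvae, and 90.9% of the difference between the sums. Without TotA, the sum of TotB, TotC and TotF was 5.72 FPKM in hsromega66 larvae and 79.4 FPKM in control larvae, 13.9-fold lower in the mutant. The sum therefore follows a member that did not pass the threshold. Ratios within a genotype do not depend on how the genotypes were scaled against each other, though they may depend on how the libraries of a genotype were pooled. TotC stood at 0.312% of the TotA level in hsromega66 larvae and 2.94% in control larvae, and TotB at 0.0303% of it in hsromega66 larvae and 0.404% in control larvae. TotF stood at 0.0656% of the TotA level in hsromega66 larvae and 0.36% in control larvae. The order of the members by FPKM was TotA, TotC, TotB and TotF in control larvae, and TotB and TotF changed places in hsromega66 larvae. The gap between these last members, 0.425 against 0.921 FPKM in hsromega66 larvae and 8.66 against 7.71 FPKM in control larvae, has no replicate check.

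**Figure D2:**
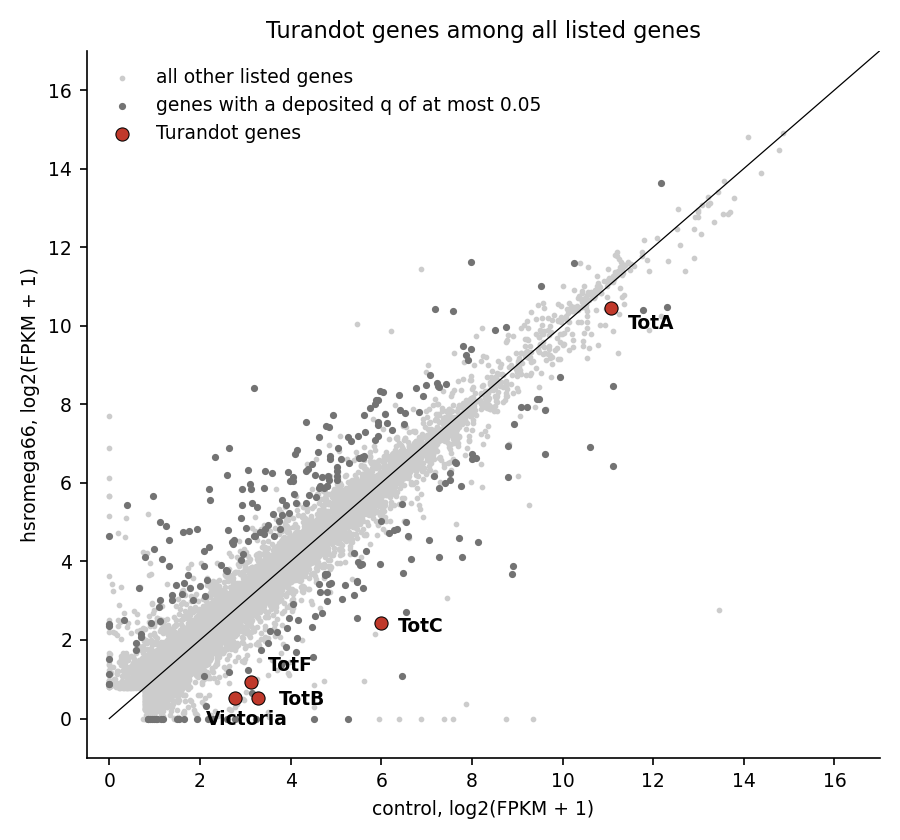
Every listed gene by its level in hsromega66 (vertical axis) and in control (horizontal axis), both as log2(FPKM + 1), with the line of equal levels. Dark grey points are genes with a deposited q of at most 0.05, and red points are Turandot genes. TotC lies far below the line at intermediate level, TotA just below it near the top, and TotB, TotF and Victoria together at the low end.

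An eighth Turandot gene was listed under another symbol. Victoria (FBgn0053117; 2L, 19912938 to 19913516, minus strand) is named TotE in the Ensembl annotation, and RefSeq gives Victoria as a synonym of TotE. It lies 560 bp from TotF on the same strand, has 2 exons and encodes 134 codons. It was looked up after the values of the members had been seen. Victoria stood at 0.446 FPKM in hsromega66 larvae and 5.83 FPKM in control larvae, 13.1-fold lower in the mutant, with a log2 ratio of -2.24. In the authors' deposited table its p-value was 0.22 and its q value 0.998, so it did not pass. Like TotB, Victoria is listed on its control value alone.

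The member with the largest plain ratio, TotB, was not the member that passed. Of all transcripts with 5 to 10 FPKM in control larvae and a deposited log2 ratio of at most -3, 30 in number, 2 had a q of at most 0.05 in the authors' deposited table, and for 8 the unadjusted p was 0.05 or below. TotB, TotF and Victoria are among these 30, whose p-values ranged up to 0.505. Of the 9 transcripts with 30 to 100 FPKM in control larvae and such a ratio, TotC among them, 4 passed. The level ranges were chosen after the members' values had been seen. The mutated gene itself, lncRNA:Hsromega, stood at 0.29 FPKM in hsromega66 larvae and 232 FPKM in control larvae, also without passing (q = 0.998 in the authors' deposited table). A member that misses the threshold is thus not shown to be unchanged.

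TotF and Victoria shared a further feature. Both were assigned to a single locus of 162060 bp that spans the gene sick and holds 12 assembled transcripts of 10 genes, among them U2 and U4 small nuclear RNA genes. TotA, TotB and TotC each had a locus of their own, 665, 585 and 593 bp long. No transcript of the wide locus had a q of at most 0.05 or a p of at most 0.05 in the authors' deposited table. The part of the locus assignment in the p-values of TotF and Victoria was not tested.

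Genes around the Turandot genes were set beside them. In the 3R region, from 20 kb before TotA to 20 kb after TotX, 5 other genes were listed; 0 had a deposited Cuffdiff q of at most 0.05 and 1 (hdly) an unadjusted p of at most 0.05, beside 2.31% and 7.82% of all genes, so that so few genes say little. RpS30, a ribosomal protein gene 19608 bp from TotA, stood at 2498 FPKM in hsromega66 larvae and 2301 FPKM in control larvae. KaiR1D, a glutamate receptor gene 4804 bp from TotA on the other strand, stood at 0.836 FPKM in hsromega66 and 0.699 FPKM in control. On the far side of TotB, lncRNA:CR44947 (1.05 FPKM in hsromega66 larvae and 2.11 FPKM in control larvae), Ktl (2.85 FPKM in hsromega66 and 2.95 FPKM in control) and hdly (44.1 FPKM in hsromega66 and 65.5 FPKM in control) had log2 ratios of -0.60, -0.04 and -0.56. The log2 ratios of the 5 genes ran from -0.60 to 0.12, beside -0.61 for TotA, and the ratios of TotC and TotB lay below that range. Within 20 kb of TotF, sick (4.04 FPKM in hsromega66 and 3.16 FPKM in control), lncRNA:CR43828 (0.91 FPKM in hsromega66 and 3.12 FPKM in control) and CG10481 (0.304 FPKM in hsromega66 and 0.773 FPKM in control) were listed beside Victoria, with 0 Cuffdiff calls by q and 0 by unadjusted p. Within 20 kb of TotM, which has no value, 7 genes were listed, with log2 ratios from -0.52 to 1.07, with 0 Cuffdiff calls by q and 1 by unadjusted p (cype, 242 FPKM in hsromega66 and 347 FPKM in control).

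**Figure D3:**
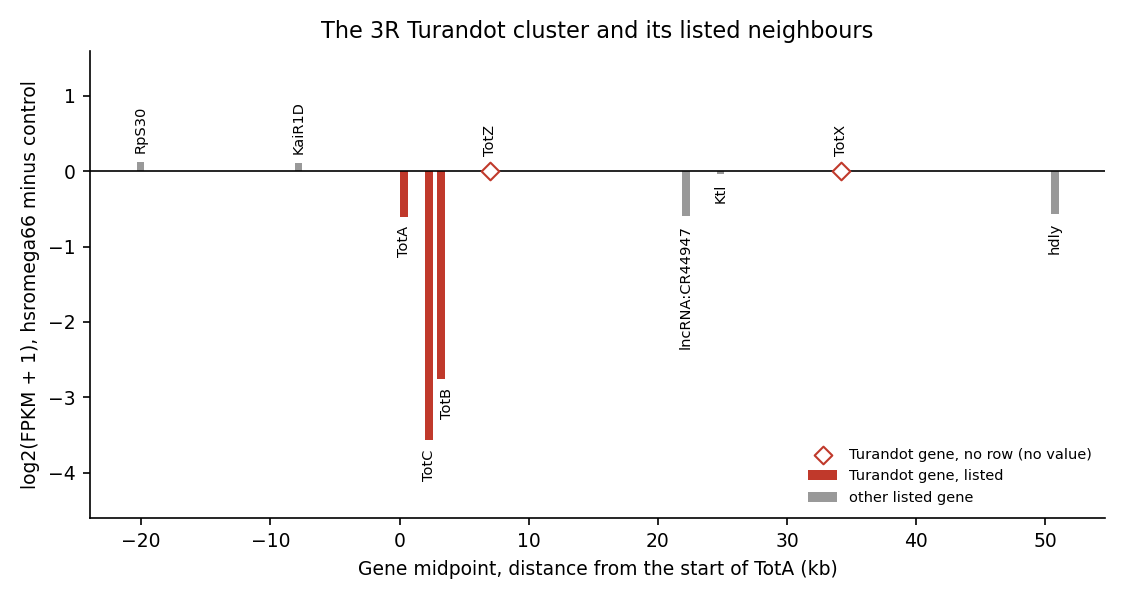
Difference in log2(FPKM + 1), hsromega66 minus control, of the Turandot genes on 3R (red) and their listed neighbours (grey), placed by the distance of the gene's midpoint from the start of TotA in kb. Bar width does not show gene length, and diamonds mark TotZ and TotX, which have no value. TotC (-3.57) and TotB (-2.76) stand below all neighbours, whose values lie between -0.60 and 0.12.

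Among the pathway lists, calls in the same direction as TotC stood in that of other textbook targets of JAK/STAT. Of 13 listed targets, 2 fell and none rose by q, where 0.908% of all genes fell and 1.4% rose. The median log2 ratio of the targets was -0.32, beside -0.013 over all genes. Tep1, which encodes a thioester protein, fell to 12.1 FPKM in hsromega66 larvae, against 87.7 FPKM in control larvae. Tep4, a further thioester protein gene, fell to 27.4 FPKM in hsromega66 larvae, against 80.3 FPKM in control larvae. Both had a q of 0.00546 in the authors' deposited table. The list was chosen with earlier results of these data known, and both calls are of thioester protein genes. The count beside the share over all genes is therefore a description and not a test. The remaining targets did not pass. Over the 13 targets, 9 log2 ratios lay below 0 and 4 above, the highest those of Mmp1 (0.40) and dome (0.38). Socs36E and dome are also counted among the pathway genes below. Of the targets that did not pass, Tep2 stood at 95.3 FPKM in hsromega66 larvae and 158 FPKM in control larvae. Socs36E, the feedback inhibitor of the pathway, stood at 10.9 FPKM in hsromega66 larvae and 13.8 FPKM in control larvae.

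The genes that carry signals to Turandot genes were counted in the same way. Of 11 listed JAK/STAT pathway genes, 0 had a deposited Cuffdiff q of at most 0.05 and 0 an unadjusted p of at most 0.05, and their median log2 ratio was 0.04. Over all genes 2.31% passed by q and 7.82% by p, so that counts of 0 in a list of this size lie near the background. The transcription factor gene Stat92E stood at 90.7 FPKM in hsromega66 larvae and 106 FPKM in control larvae, the kinase gene hop at 8.80 FPKM in hsromega66 and 9.46 FPKM in control, and the receptor gene dome at 11.0 FPKM in hsromega66 and 8.26 FPKM in control. The most extreme were et (eye transformer, a short receptor that dampens the pathway), at 2.78 FPKM in hsromega66 larvae and 5.64 FPKM in control larvae, and Socs44A, at 17.9 FPKM in hsromega66 and 13.2 FPKM in control. The cytokine genes upd1, upd2 and upd3 had no row, so the ligands of the pathway have no value here.

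Stress kinases and the Imd pathway were set against the same shares, 2.31% by q and 7.82% by p. Of 18 listed genes of the p38 and JNK pathways, 0 had a deposited Cuffdiff q of at most 0.05 and 0 an unadjusted p of at most 0.05, with a median of 0.04. Mekk1 stood at 22.5 FPKM in hsromega66 larvae and 20.1 FPKM in control larvae. The most extreme were hep, a JNK kinase, at 11.0 FPKM in hsromega66 larvae and 8.14 FPKM in control larvae, and grnd, a receptor of the ligand Eiger, at 15.1 FPKM in hsromega66 and 18.6 FPKM in control. Of 19 listed Imd pathway genes, 0 had a deposited Cuffdiff q of at most 0.05 and 1 a lower value at an unadjusted p of at most 0.05, with a median of 0.11. Counts this small also lie near the background. The gene with the lower value was PGRP-SC2, an amidase that degrades peptidoglycan, at 118 FPKM in hsromega66 larvae and 236 FPKM in control larvae, with a q of 0.0563 in the authors' deposited table. Rel, which encodes Relish, stood at 69.0 FPKM in hsromega66 and 52.4 FPKM in control, and pirk, an inhibitor of the pathway, at 15.4 FPKM in hsromega66 and 10.7 FPKM in control.

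**Figure D4:**
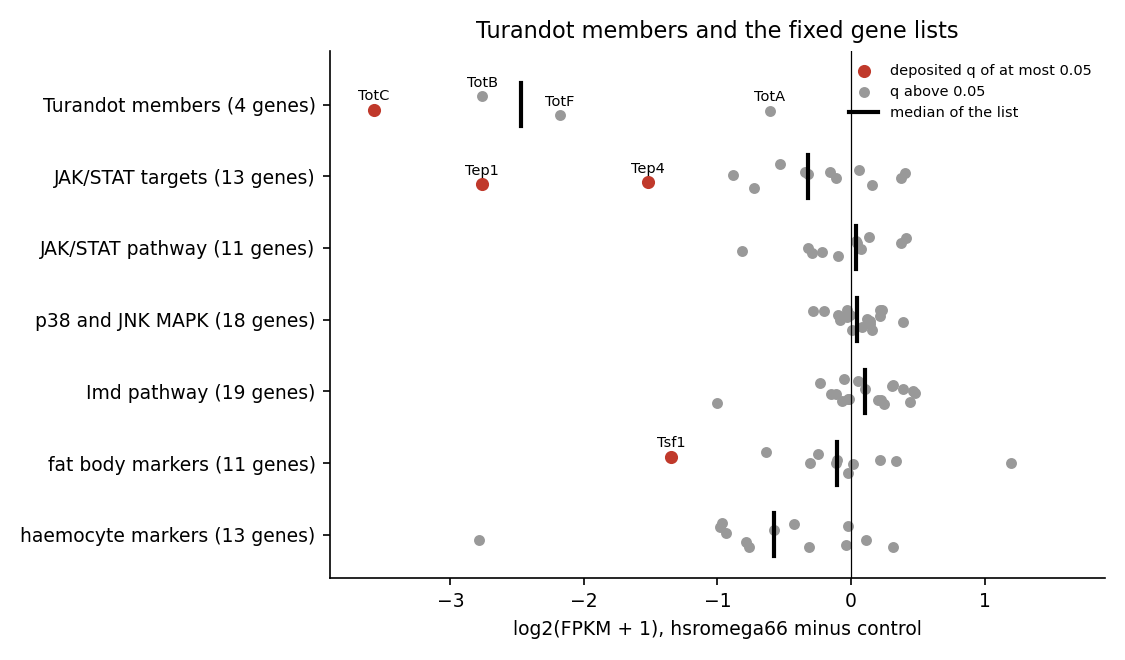
Difference in log2(FPKM + 1), hsromega66 minus control, with 1 point per listed gene of the Turandot members and of 6 gene lists, spread vertically for legibility. Red points have a deposited q of at most 0.05 (TotC, Tep1, Tep4 and Tsf1) and black bars are list medians. The JAK/STAT pathway, p38 and JNK, and Imd lists have medians between 0.04 and 0.11. The medians of the fat body markers (-0.11), the JAK/STAT targets (-0.32), the haemocyte markers (-0.58) and the Turandot members (-2.47) lie to the left of 0. The muscle markers (median -0.54) and the gut markers (median 0.50) are not drawn.

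Markers of the tissues that could carry the signal were measured in the same larvae. Among all genes, 2.31% passed by q and 7.82% by unadjusted p, so that a count of 0 in lists of this size lies near the background. Not all counts were 0. By q, 1 of 11 listed fat body markers fell and 2 of 6 listed gut markers rose, where 0.908% of all genes fell and 1.4% rose. In whole larvae, fewer cells of a type and less RNA per cell cannot be told apart. Of 13 fat body markers, 11 were listed, none at 0, with a summed level of 37629 FPKM in hsromega66 larvae and 39330.3 FPKM in control larvae and a median log2 ratio of -0.11. Lsp1alpha, Lsp1beta, Fbp1 and Fbp2 held most of both sums, which therefore say little of the other markers. The log2 ratios of single fat body markers ran from -1.35 to 1.20. Tsf1, the iron carrier transferrin, fell to 279.9 FPKM in hsromega66 larvae, against 713 FPKM in control larvae (q = 0.0142 in the authors' deposited table), and Adh stood at 3084 FPKM in hsromega66 and 1341 FPKM in control without passing. The haemocyte markers, of cells that secrete unpaired cytokines, were lower as a sum: 346 FPKM in hsromega66 larvae and 508 FPKM in control larvae over 13 of 14 names, none at 0. None had a deposited Cuffdiff q of at most 0.05, and 5 had lower values at an unadjusted p of at most 0.05, where 3.2% of all genes did. Those 5 were Hml, NimC1, eater, PPO1 and Sr-CI. The most extreme haemocyte markers by log2 ratio were not among them: PPO3 (1.23 FPKM in hsromega66 larvae and 14.4 FPKM in control larvae) and He (29.7 FPKM in hsromega66 and 59.6 FPKM in control). Of the 13 log2 ratios, 11 lay below 0 and 2 above, those of vkg (0.31) and Col4a1 (0.11). The 7 muscle markers summed to 4493 FPKM in hsromega66 larvae and 6551 FPKM in control larvae, with 0 Cuffdiff calls by q or by unadjusted p. All 7 were lower in hsromega66 larvae, where 51.8% of all genes were. The median log2 ratio of the 7 was -0.54. Act57B stood at 1689 FPKM in hsromega66 and 2543 FPKM in control, and up at 296 FPKM in hsromega66 and 438 FPKM in control. The 6 listed gut markers of 7 summed to 4493 FPKM in hsromega66 larvae and 3495 FPKM in control larvae, and Jon65Aiv, which did not pass, held most of both sums (3533 FPKM in hsromega66 and 2346 FPKM in control). Jon25Bi lay the other way (743 FPKM in hsromega66 and 1041 FPKM in control) without passing, and Amy-p (87.6 FPKM in hsromega66 and 21.3 FPKM in control) and Mur29B (60.0 FPKM in hsromega66 and 26.8 FPKM in control) rose. The part of these shifts in the Turandot values was not tested.

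TotA, the most abundant member, was also compared with all genes by its pair of levels. The 3 nearest genes in the plane of log2(FPKM + 1) in hsromega66 and in control were snoRNA:Psi28S-1060 (1364 FPKM in hsromega66 and 2154 FPKM in control), snoRNA:Psi18S-1377e (1343 FPKM in hsromega66 and 2063 FPKM in control) and Mlc2, a muscle myosin light chain (1382 FPKM in hsromega66 and 2003 FPKM in control), with distances between 0.042 and 0.098. This likeness rests on only 2 pooled values per gene.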

How the data were processed

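RNA of 5 whole larvae per library was depleted of ribosomal RNA, made into libraries with a stranded kit and read at both ends for 100 bp, per the labels' protocols. The submitters' processing notes name Cuffdiff 2.1.1, Cufflinks, TopHat, Bowtie and the build dm6. Whether counting used strand is not stated there. The authors deposited FPKM values, 1 per transcript and genotype, pooled over 2 libraries, with a log2 ratio, p-value and q-value per transcript. Recomputing the ratio from FPKM gave the deposited log2 within 0.0001, and Benjamini-Hochberg adjustment of the p-values over 21529 transcripts gave the deposited q within 1e-06.

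FPKM values were summed per gene, and a log2 ratio is the difference hsromega66 minus control in log2(FPKM + 1). A gene was called, and said to rise or fall, where 1 of its transcripts had a deposited q of at most 0.05; Cuffdiff's test was the only test. Depth is unknown, so no interval was computed, and no value per library was analysed. Gene positions came from Ensembl 115 (BDGP6.54, dm6 coordinates), where 12037 of 12116 gene identifiers matched. Counting of calls was tested on simulated data. The members, the gene lists and the rule for named genes (all members, neighbours within 20 kb, called and 2 most extreme list members, and the 3 genes nearest TotA) were chosen with earlier results of these data known; Tep2, Socs36E, Stat92E, hop, dome, Mekk1 and Rel were added for their roles. Scripts ran in Python 3.11.15 (pandas 2.3.3, matplotlib 3.10.9, scipy 1.17.1, numpy 2.4.6).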

Additional observations from a re-analysis of the deposited data

How the results depend on the processing

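No paired analysis was possible because the table holds 1 pooled value per genotype, and for the same reason no replicate could be left out. The count of 1 called Turandot member stood with a q threshold of 0.1, a minimum absolute log2 ratio of 1 and filters of 1 and 5 FPKM. These settings could hardly change it. TotC had a deposited Cuffdiff q of 0.00546, a log2 ratio of -3.57 and 63.0 FPKM in control larvae. The other listed members had a q of 0.988 or 0.998. The count became 2 with an unadjusted p of at most 0.05, under which 948 of all genes passed, against 280. The Imd pathway count of 0 became 1 with a q threshold of 0.1 and 1 with the unadjusted p. The counts of JAK/STAT pathway, JAK/STAT target and p38 and JNK genes stayed within 1.5 times under these alternatives. The log2 ratio of summed Turandot FPKM, -0.66, was -3.58 without TotA, and moved by less than 0.1 with another pseudocount, centring, the other members left out in turn, or, chosen after seeing the data, Victoria added. TotA made up 99.6% of the sum in hsromega66 larvae and 96.4% in control larvae, so leaving out another member or adding Victoria could move it little. For single low members the pseudocount matters: the log2 ratio of TotB was -4.06 with 0.1 and -1.33 with 5, and that of TotF -2.94 and -1.10, all below 0. No value is known for members below the table's lower limit.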

Other observations

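TotA, TotB and TotC lie on the same chromosome arm as the mutated gene, with 421604 bp between TotB and Hsromega. Of 195 other listed genes within 1 Mb of Hsromega, 6 rose and 3 fell by the deposited q, 4.62% of them, against 2.27% of the 11920 remaining genes, Hsromega itself left out of both. The falls alone made up 1.54% of the 195 genes and 0.898% of the remaining genes. TotC is itself 1 of these 195 genes and 1 of the 3 falls, as is the metallothionein gene MtnB (66.6 FPKM in hsromega66 larvae and 184 FPKM in control larvae). The called gene nearest Hsromega, e at 58949 bp, was among the rises (75.2 FPKM in hsromega66 larvae and 11.0 FPKM in control larvae). So was CG5697, 279006 bp from Hsromega (16.2 FPKM in hsromega66 larvae and 0.713 FPKM in control larvae). The differences between the shares near Hsromega and those of the remaining genes were not tested.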
